A study of Mus musculus with 2 samples.

Results

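The intermediate filament genes described here are 10 genes chosen by name, of 19494 genes that had a named probe set on the arrays. They comprised 4 filaments of glia and glial progenitors (Gfap, Vim, Nes and Synm), 5 filaments of neurons (Nefl, Nefm, Nefh, Ina and Prph) and 1 of muscle (Des). All 10 had a probe set, 1 each. Above background on at least 1 array were 7 of the 10, beside 15196 of the 19494 genes. The MCAO + exercise sample came from male C.B-17/Icr-+/+Jcl mice, 7 weeks old at permanent occlusion of the middle cerebral artery (MCAO). These mice had a running wheel for 15 days after the occlusion. The MCAO + non-exercise sample came from mice of the same strain, sex and age with the same occlusion, housed without a wheel afterwards. Mice of both groups had been trained on a wheel for 1 week beforehand, and both received BrdU at 50 mg/kg/day on postoperative days (POD) 0, 1, 2 and 3. On POD15, cells that an antibody against ACSA-2 (astrocyte cell surface antigen-2) bound were sorted from the ipsilateral cortices with magnetic beads. Each group was 1 RNA pool of 4 extracts, each extract from 2 or 3 mice, measured on 1 Clariom S array, so there were no replicates, no difference could be tested, and no error or p-value is given.

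Intermediate filaments are the rope-like part of the cytoskeleton, built from coiled-coil proteins that pair, bundle and anneal end to end. Astrocytes build them from GFAP and vimentin, to which nestin and synemin can be added, and raise GFAP and vimentin when they become reactive after injury. Neurons fill their axons with neurofilaments, made of the light, medium and heavy subunits with alpha-internexin or peripherin, which set axon calibre. Desmin forms the filaments of muscle and of many mural cells of vessels.

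The proximal promoters of 3 members are shown because Gfap and Vim were far above background on both arrays and Ina had the largest difference. The sequences come from RefSeq (GRCm38.p6) and hold the 250 bases before the annotated start, 5′ to 3′ on the strand of the gene. Gfap lies at chr11:102897201-102897450 on the minus strand, Vim at chr2:13574061-13574310 on the plus strand and Ina at chr19:47014431-47014680 on the plus strand. Capitals mark the letters of a TATA box, TATAAA, of a CAAT box, CCAAT, and of a GC box, GGGCGG, each searched on both strands.
Gfap: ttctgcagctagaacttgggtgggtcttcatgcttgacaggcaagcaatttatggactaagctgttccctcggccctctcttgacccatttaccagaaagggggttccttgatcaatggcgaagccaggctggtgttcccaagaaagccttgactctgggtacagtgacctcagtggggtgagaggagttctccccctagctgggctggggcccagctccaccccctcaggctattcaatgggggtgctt
Vim: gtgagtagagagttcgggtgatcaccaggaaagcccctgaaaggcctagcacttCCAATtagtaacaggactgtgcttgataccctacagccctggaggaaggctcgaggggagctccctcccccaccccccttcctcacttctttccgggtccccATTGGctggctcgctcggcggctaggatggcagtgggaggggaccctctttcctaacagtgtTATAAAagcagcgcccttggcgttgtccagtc
Ina: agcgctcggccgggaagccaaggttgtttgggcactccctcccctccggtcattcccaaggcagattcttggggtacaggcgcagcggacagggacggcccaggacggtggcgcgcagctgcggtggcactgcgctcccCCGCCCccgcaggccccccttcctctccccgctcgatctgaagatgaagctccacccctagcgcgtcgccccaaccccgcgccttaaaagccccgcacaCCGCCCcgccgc
The Vim window held the TATA box letters at -32 to -27 from the start and the CAAT box letters in 2 places, whereas the Ina window held the GC box letters in 2 places and neither of the others. The Gfap window held none of the 3, nor the STAT factor motif TTCNNNGAA. The AP-1 letters TGANTCA and the E-box letters CACGTG were searched as well and stood in none of the 3 windows shown, and among the other matched members the Synm window held the E-box letters. Of 32851 promoter windows of this length, 12.4% held the TATA box letters, 33.8% those of the CAAT box, 32.7% those of the GC box, 7.02% those of the STAT motif, 6.75% the AP-1 letters and 6.02% the E-box letters. The Gfap window had 2 CpG dinucleotides and the Vim window 8, against 25 in the Ina window and a median of 6 over all windows. Promoter entries were matched for 7 of the 10 members. These matches describe letters in a window and were not set against the expression values.

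The differences are log2 values of the array labelled MCAO + exercise minus those of the array labelled MCAO + non-exercise, and they follow the deposited labels. This direction was opposite to that in the gene lists of the study for all 72 of those genes that had a named probe set, and 0 had the same sign. None of the 10 filament genes is in those lists. Whether the labels or the lists are turned cannot be told apart from the arrays, and exchanged labels would change the sign of every difference below. Background was set at the 25th percentile of the named probe sets of each array, a log2 value of 4.89 for MCAO + exercise and 5.08 for MCAO + non-exercise. Genes that passed it on 1 or both arrays were kept, 15196 of 19494. A percentile filter passes most genes by construction, so counts of members or list genes below background are read beside this share. A gene was counted as higher or lower past 1 on the log2 scale, a 2-fold change and the fold threshold of the study. The study's lists hold 80 genes, against 573 higher and 359 lower here under another background filter. A gene past 1 here is therefore not necessarily one that the study called.

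Gfap, the filament protein by which the study stained astrocytes, had a log2 value of 11.41 on the MCAO + exercise array and 10.67 on the MCAO + non-exercise array. In linear units these were intensities of 2712 and 1624, a 1.67-fold higher signal on the MCAO + exercise array. The log2 difference of 0.74 stayed under the threshold of 1, and 8.52% of the kept genes had a higher one. In pooled RNA of sorted cells, more astrocytes in the sort and more Gfap RNA per astrocyte cannot be told apart. The 26 astrocyte markers with a probe set, of 27 on the list, were above background on both arrays and had a median difference of 0.61, with 24 of them higher and 2 lower, from -0.12 for Slc7a10, an amino acid transporter, to 2.10 for the receptor gene Gpr37l1. Gfap therefore lay 0.13 above the median of the astrocyte markers, and 11 of the 26 had a higher difference than Gfap. Of the markers, Slc1a3 and Aldoc are in the lists of the study. Whether the Gfap difference goes beyond what the share of astrocytes gives was not tested.

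Vim encodes vimentin, which astrocytes, endothelium, microglia and fibroblasts all express. Its log2 value was 17.00 on the MCAO + exercise array and 16.84 on the MCAO + non-exercise array, or intensities of 131375 and 117038. The signals were thus nearly equal, with a difference of 0.17, and 39.5% of the kept genes had a higher one. Its sign turned under quantile normalization, which gave -0.06. Set against each other on the same arrays, Gfap moved 0.57 more than Vim on the log2 scale. The Vim difference was 0.44 below the median of the astrocyte markers and 0.52 above the median of the endothelial markers, which was -0.36. All 15 kept endothelial markers were lower on the MCAO + exercise array, from -0.69 for Emcn to -0.16 for Esam. Of 10 fibroblast markers, 9 were lower, with a median of -0.69, and they ran from -1.81 for Col3a1, a fibrillar collagen, to 0.17 for the growth factor gene Igf2. The part of each of these cell types in the Vim signal was not tested.

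**Figure D1:**
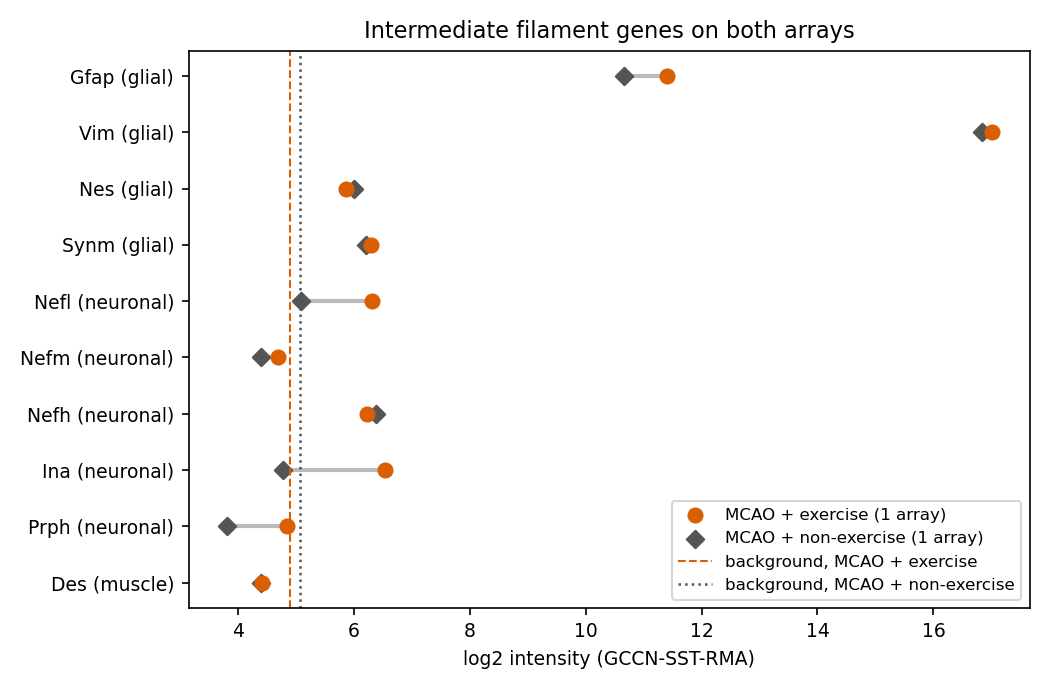
Log2 intensity (x axis) of the 10 intermediate filament genes on the MCAO + exercise array (circles) and the MCAO + non-exercise array (diamonds), with the background of each array as a vertical line and no error bars because each group had 1 array. Gfap and Vim are far right of both lines, Nefl and Ina have the circle to the right of the diamond, and Nefm, Prph and Des lie left of both lines.

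Nes encodes nestin, a filament of neural progenitors that reactive astrocytes and endothelium can also make. It had log2 values of 5.87 on the MCAO + exercise array and 6.00 on the MCAO + non-exercise array, above background by 0.97 and 0.92. Its difference of -0.13 changed sign after quantile normalization, to 0.02, and after a loess correction by level, also to 0.02. Of 10 kept progenitor and proliferation markers, 6 were higher and 4 lower. Their median was 0.37, and the largest difference was that of Sox2, a transcription factor of neural stem cells and astrocytes, at 1.69, whereas Rrm2, of nucleotide synthesis, was lowest at -0.56. Synm encodes synemin, which needs vimentin or desmin as a partner to form filaments. Its log2 value was 6.29 on the MCAO + exercise array and 6.22 on the MCAO + non-exercise array, a difference of 0.08 that became -0.03 when the medians of the arrays were set equal. Of the 4 glial filament genes, 0 were thus past the threshold in either direction, and their median difference was 0.12. Over all kept genes the median difference was 0.04.

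Of the neuronal filament genes, Ina had the largest difference. Ina encodes alpha-internexin, the neurofilament subunit of central neurons, and its log2 value was 6.54 on the MCAO + exercise array, 1.65 above background, against 4.78 on the MCAO + non-exercise array, which was not above background. Against the background level of the MCAO + non-exercise array its signal was at least 2.77-fold higher, and the measured difference was 1.76. Ina was kept only through the array where it was higher, so the filter itself favoured a positive difference. A rank among the kept genes is therefore not given. Nefl, the light subunit on which other subunits assemble, had 6.31 on the MCAO + exercise array and 5.09 on the MCAO + non-exercise array, a difference of 1.22, or 2.33-fold. On the MCAO + non-exercise array it exceeded background by only 0.01.

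Nefh, the heavy subunit with the long phosphorylated tail, had nearly equal signals on both arrays, with a log2 value of 6.22 on the MCAO + exercise array and 6.38 on the MCAO + non-exercise array, above background by 1.33 and 1.30, and a difference of -0.16. On the same arrays Nefl moved 1.38 more than Nefh, and Ina at least 1.63 more when its value below background was raised to the background level. Nefm, the medium subunit, was below background on both arrays, and no fold is given for it. Its log2 value was 4.70 on the MCAO + exercise array and 4.39 on the MCAO + non-exercise array. Prph encodes peripherin, a filament mostly of peripheral and motor neurons, and was also below background on both arrays, at 4.85 on the MCAO + exercise array and 3.81 on the MCAO + non-exercise array. Of 11 markers of such neurons with a probe set, 7 were below background on both arrays, among them Chat, the acetylcholine-synthesizing enzyme, and the sodium channel gene Scn10a. The 4 kept ones ran from -0.56 for the receptor gene Ret to 0.15 for Th, of catecholamine synthesis. Des, the muscle filament, had 4.41 and 4.39, below background on both the MCAO + exercise and the MCAO + non-exercise array.

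Among the 7 kept members, 2 were higher by more than 1 (Nefl and Ina) and 0 were lower by more than 1. Ina was kept only through the array where it was higher, which favours this count. With background passed on both arrays, 1 of 6 members was higher by more than 1, beside 516 of 14043 genes. Over all 15196 kept genes, 573 (3.77%) passed the threshold upward and 359 (2.36%) downward. This balance turned when the medians of the arrays were set equal, which gave 433 genes higher and 575 lower, and with 32 added to each intensity it was 403 and 99. Differences above 0, of any size, were found for 53.5% of the kept genes. The median of the 3 kept neuronal members was 1.22, which is the value of Nefl, and over all 5 measured it was 1.04, which is the value of Prph below background. These medians rest on dim probe sets and are given as description. The neuronal median was 1.10 above the glial one over kept members, and 0.41 above it when background had to be passed on both arrays, where only Nefl and Nefh remained. Of the 5779 kept genes with a mean log2 level from 4 to 7, which include Nes, Synm, Nefl, Nefh and Ina, 2.11% were higher and 4.45% lower by more than 1, and the 5th and 95th percentiles of their differences were -0.98 and 0.77. Of the 2956 genes from 10 to 13, which include Gfap, these percentiles were -0.51 and 0.97. The median difference was -0.14 from 4 to 7 and 0.18 from 10 to 13. Comparisons of dim members with the medians of brighter lists include this dependence on level. With 32 added to each intensity before log2, which dampens dim probe sets, Nefl had a difference of 0.75, Ina 1.08 and Gfap 0.73.

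**Figure D2:**
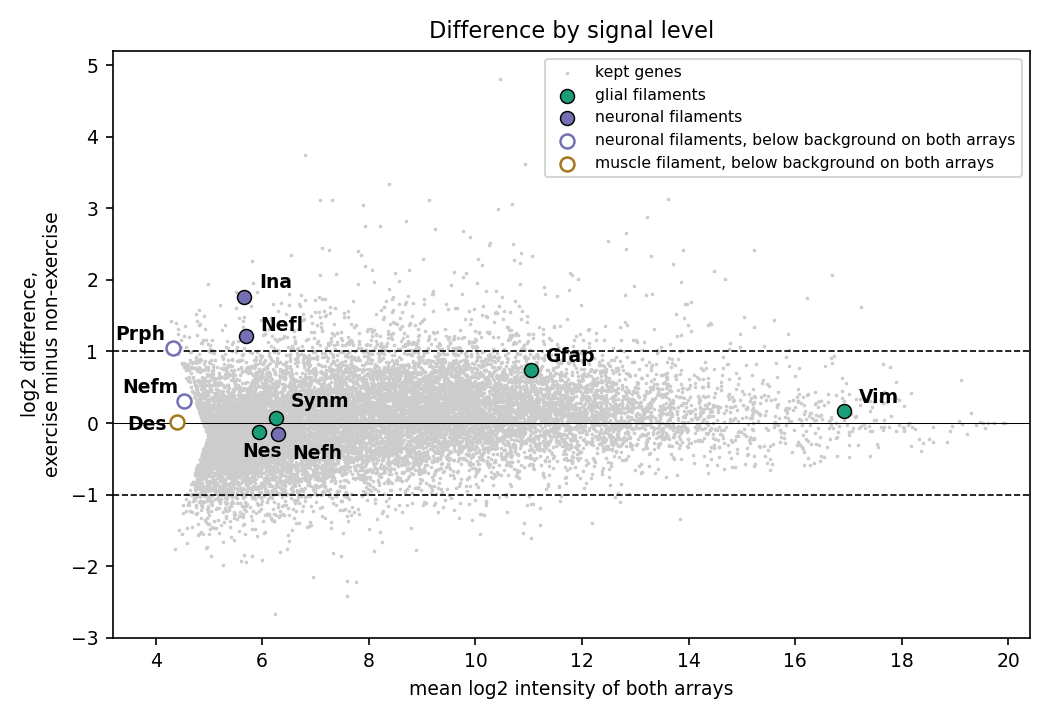
Log2 difference, exercise minus non-exercise (y axis), against the mean log2 intensity of both arrays (x axis) for kept genes in grey, with 1 kept gene beyond the drawn range, and the filament genes in colour. Open symbols are filament genes below background on both arrays, dashed lines mark 1 and -1, and Ina and Nefl stand above the upper line at low levels while Gfap and Vim lie between the lines at high levels.

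Other neuronal transcripts were present in the sorted cells and many were higher on the MCAO + exercise array. For this and the following lists, the shares over all kept genes were 3.77% higher and 2.36% lower by more than 1. Differences above 0 made up 53.5%. Of 27 kept neuron markers, 19 were higher and 8 lower, 8 by more than 1 and 4 by less than -1, with a median of 0.56. Their summed intensity over the 28 genes with a probe set was 57792 on the MCAO + exercise array and 20260 on the MCAO + non-exercise array, but most of this gap came from Camk2a, a kinase of excitatory neurons. Without Camk2a, a choice made after seeing the data, the sums were 20538 and 15997, a 1.28-fold difference. Vsnl1, a neuronal calcium sensor, was higher by 3.34, whereas the NMDA receptor subunit Grin2b was lower, at -2.41. Rbfox3, which encodes the neuronal nuclear protein NeuN, had 6.45 on the MCAO + exercise array and 5.52 on the MCAO + non-exercise array. Snap25, of the synaptic fusion machinery, had 11.58 and 10.12. Against the median of the neuron markers, Nefl was higher by 0.66 and Ina, from the background level, by at least 0.91, and Nefh was 0.72 below it. The part of neuronal RNA in the filament values was not tested.

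Of 15 kept genes of the axonal cytoskeleton that accompany neurofilaments, 12 were higher on the MCAO + exercise array, 6 of them past the threshold, and 3 were lower, 0 of them past it. The median was 0.54. Tubb3, Stmn2, Thy1 and Map2 are on this list and on the neuron marker list, so the counts of both lists overlap. Uchl1, an axonal ubiquitin hydrolase, had the largest difference, 1.72, with log2 values of 7.85 on the MCAO + exercise array and 6.14 on the MCAO + non-exercise array. Map1a and Map1b, which bind axonal and dendritic microtubules, were higher by 1.48 and 1.36, and Ank3, the ankyrin of the axon initial segment, by 1.56. Sncb, beta-synuclein, was the lowest at -0.67, and the microtubule proteins tau (Mapt) and Map2 had differences of 0.23 and 0.33.

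Motors that carry neurofilaments along axons included the largest differences of all the partner groups. Of 10 kept motor genes, 9 were higher, 4 of them by more than 1, and 1 lower, with a median of 0.59. Kif5a, the neuronal kinesin heavy chain that moves neurofilaments, had 17.37 on the MCAO + exercise array and 13.28 on the MCAO + non-exercise array, a difference of 4.09. Kif5c and Kif5b, the other heavy chains, were higher by 3.87 and 2.23, and Dync1li2, a dynein light intermediate chain, by 1.81. Their light chain gene Klc1 had a difference of 0.17, the dynein heavy chain Dync1h1 one of 0.22, and Dctn1, of the dynactin complex, was lowest at -0.32. Kif5a, Kif5b and Dync1li2 are in the lists of the study, so their direction is no independent evidence.

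Enzymes that act on filament proteins were also measured. Of 13 kept kinases and phosphatases, 9 were higher, 2 of them past the threshold, and 4 lower. The median was 0.47. Camk2a, a calcium-dependent kinase also counted as a neuron marker and in the study's lists, was higher by 3.13. Camk2b was higher by 1.29, and Cdk5, which phosphorylates neurofilament tails, had a difference of 0.58. Its activator gene Cdk5r1 was the lowest at -0.30. Of 6 kept proteases and modifying enzymes, 3 were higher and 3 lower. Padi2, which citrullinates GFAP and vimentin and is known from oligodendrocytes and astrocytes, was higher by 1.04, with 7.72 on the MCAO + exercise array and 6.68 on the MCAO + non-exercise array, and the calpain Capn2, which degrades filaments, was lowest at -0.45.

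The 7 kept chaperones and turnover factors had a median of 0.48, and 6 of them were higher. Cryab, the small heat shock protein that binds GFAP and gathers with it in Rosenthal fibres, had 15.95 on the MCAO + exercise array and 14.87 on the MCAO + non-exercise array, a difference of 1.08, and is in the lists of the study. Hspb1, a related small heat shock protein, had a difference of 0.07. Trim2, a ubiquitin ligase for the light neurofilament subunit, had 10.31 on the MCAO + exercise array and 9.32 on the MCAO + non-exercise array. Its difference of 1.00 was just under the threshold. The lowest was Bag3, a co-chaperone, at -0.10. Of 7 plakins that tie filaments to other structures, 4 had a named probe set and 3 were kept. Plec, Macf1 and Eppk1 had none and were not measured. Dst, dystonin, had a difference of 0.58 and Evpl, envoplakin, one of -0.68.

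**Figure D3:**
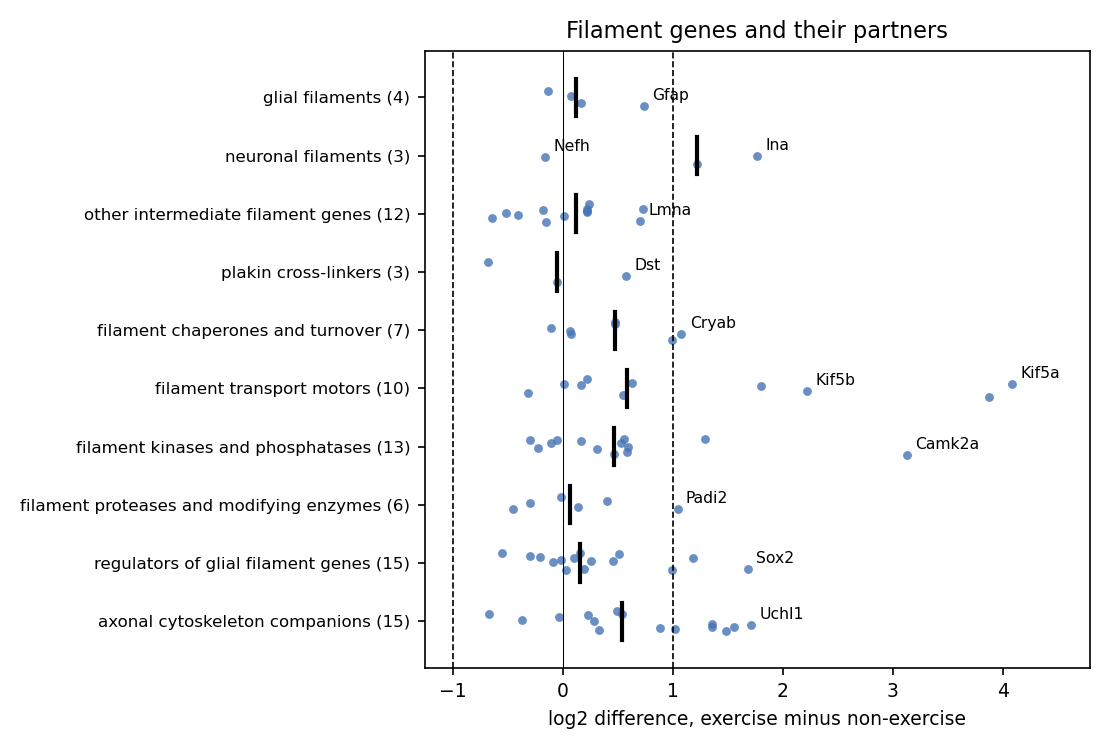
Log2 difference, exercise minus non-exercise (x axis), of each kept gene in the filament classes and partner lists (rows, with the number kept), where a point is a gene, the bar is the median of the row and dashed lines mark 1 and -1. The motor genes Kif5a and Kif5b and the kinase gene Camk2a lie far to the right, whereas 3 of the 4 glial filament genes lie near 0.

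Genes listed as regulators of Gfap, Vim or Nes expression had a median of 0.16 over 15 kept genes, with 10 higher and 5 lower. They include inhibitors as well as activators, so these counts give no direction of regulation. Besides Sox2, only Sox9, the glial transcription factor that is also counted as an astrocyte marker, passed 1, with 10.33 on the MCAO + exercise array and 9.15 on the MCAO + non-exercise array, a difference of 1.18. Stat3, which turns on Gfap in reactive astrocytes, had 11.61 and 11.36, a difference of 0.26, and its feedback inhibitor Socs3 had 10.22 and 9.23, a difference of 0.99. Hes5, a Notch effector, was lowest at -0.56. Genes of reactive astrocytes did not share a direction, with 9 of 17 kept higher, 8 lower and a median of 0.07. Lcn2, a secreted lipocalin that is in the lists of the study, had the largest difference at 1.79, and Ptx3, a pentraxin, the lowest at -0.62. Gfap lay 0.67 above the median of these genes and Vim 0.09 above it.

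Other intermediate filament genes were measured for comparison. Of 21, 12 were kept and 9, mostly keratins of epithelia, were below background on both arrays. Among those kept, 7 were higher and 5 lower, 0 of them past the threshold in either direction. Their median was 0.12. Krt222, a keratin-like gene, had the largest difference at 0.73. Lmna, which encodes the A-type lamins of the nuclear envelope, had 11.85 on the MCAO + exercise array and 11.15 on the MCAO + non-exercise array, a difference of 0.71, and Lmnb1, a B-type lamin, one of 0.22. Sync, syncoilin, a filament protein of muscle, was lowest at -0.64.

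For desmin, the cells that would carry it were checked. All 9 kept smooth muscle markers were lower on the MCAO + exercise array, with a median of -0.61, led by the actin gene Acta2 at -1.53 and the myosin gene Myh11 at -1.38, and closest to 0 was the myosin light chain gene Myl9 at -0.21. Pericyte markers went both ways, with 7 of 10 higher and 3 lower, from -1.26 for Cspg4 to 1.10 for Abcc9. Among them, Vtn is in the lists of the study. Of 12 skeletal muscle markers, 6 were below background on both arrays, among them the skeletal actin Acta1, and the others ran from -1.12 for the creatine kinase gene Ckm to 0.26 for Casq1, of calcium storage. Des itself stayed below background on both arrays, so its difference of 0.02 carries no information on these cells.

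Markers of oligodendrocytes and microglia were bright in both pools, each above a log2 value of 11 on both arrays. Of 14 kept oligodendrocyte markers, 14 were higher, from 0.35 for Mal to 2.06 for Mobp, both of myelin, with a median of 0.81, and Mbp, a myelin protein, had 19.42 on the MCAO + exercise array and 18.82 on the MCAO + non-exercise array. Mobp is in the lists of the study. Of 6 kept precursor markers 5 were higher, with a median of 0.68, from -0.75 for the proteoglycan gene Vcan to 1.25 for the receptor gene Gpr17. Neutrophil markers were dimmer apart from Csf3r, which had 14.52 on the MCAO + exercise array and 14.67 on the MCAO + non-exercise array. Of 9 with a probe set, 1 was below background on both arrays. Ltf and Elane were above it on the MCAO + exercise array only. Of the 8 kept ones 6 were higher, with a median of 0.97, from -0.54 for the myeloperoxidase gene Mpo to 2.83 for the granule protein gene Ngp. The neutrophil median became 0.66 once values under background were raised to the background level. Of 12 kept microglia markers, 8 were lower and 4 higher, from -0.62 for the adaptor gene Tyrobp to 0.69 for Tmem119, with a median of -0.19. Their part in the values of Vim and Gfap was not tested.

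**Figure D4:**
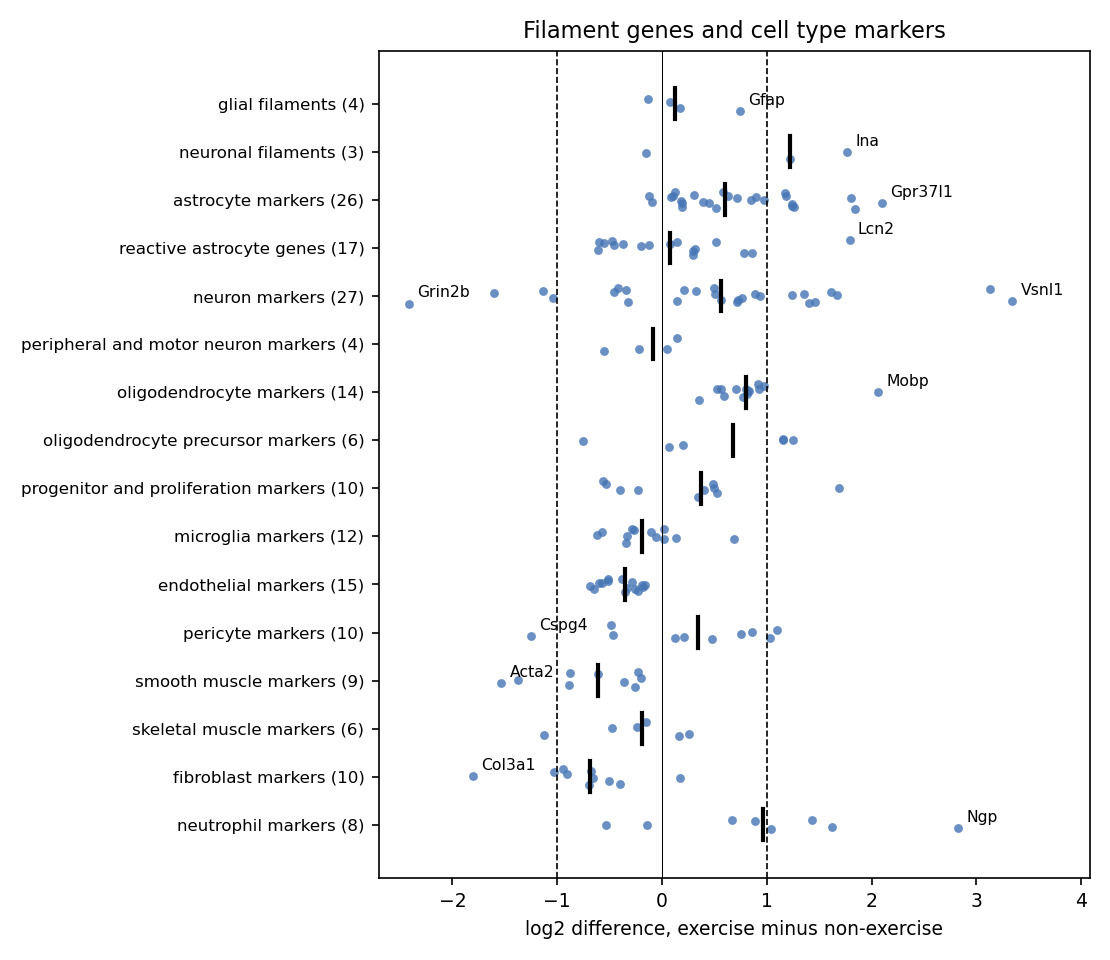
Log2 difference, exercise minus non-exercise (x axis), of each kept gene in the filament classes and cell type marker lists (rows, with the number kept), where a point is a gene, the bar is the median of the row and dashed lines mark 1 and -1. Gfap lies close to the median of the astrocyte markers, Ina to the right of the median of the neuron markers, and the endothelial and smooth muscle markers lie left of 0.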

How the data were processed

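RNA of ACSA-2-sorted cells was measured on 2 arrays, 1 per group, each with about 200 ng of a pool of about 70 ng of each of 4 extracts. The arrays were run through a contracted analytical service, and the values were normalized by GCCN-SST-RMA. The submitters' processing notes also list RMA and Affymetrix Expression Console, with no version. The intensities were deposited on a linear scale for 22142 probe sets, and log2 was taken here. They ran from 6.30 to 999964 for MCAO + exercise and from 5.53 to 999964 for MCAO + non-exercise. Precision is limited by the number of arrays. The genome build of the array annotation is not given in the sources used here; the promoter sequences carry their own RefSeq build.

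Gene symbols came from the annotation of the platform, in which 19527 probe sets had 1 symbol, 0 several and 2615 none. For 33 genes with several probe sets the brightest was used. Control probe sets were not used here, so the 25th percentile stood in for the negative control filter of the study. A value not above background has only a bound, and "at least" folds are set against the background level of that array. 52 probe sets had the same value on both arrays, and 0 of the filament genes were among them. The members and lists were chosen with earlier results of these data known. All 10 members are named, and of each list the genes with the largest positive and negative difference and up to 2 leading ones; other genes were chosen after their values were seen. Proteins were not compared, since no protein sequences were used. Computation used Python 3.11.15, NumPy 2.4.6, pandas 2.3.3, statsmodels 0.14.6 and matplotlib 3.10.9. The alternatives were a background set at the 10th percentile, one passed on both arrays, none, median centring, quantile normalization, a loess correction with a span of 0.3, an offset of 32, and the mean of probe sets.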

Additional observations from a re-analysis of the deposited data

How the results depend on the processing

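No paired analysis was possible because each group had 1 array. Of the 184 values that an alternative could move, over 39 results and 8 alternatives, 171 stayed on their side of the threshold and within 1.5-fold of their first value, and 18 near 0 changed sign. Many of these values are medians of marker and partner lists, so this share does not describe the filament genes. It also counts the neuronal excess over the glial median under median centring, which shifts every difference alike and cannot move it. The 7 values that fell under the threshold were all of the neuronal median, its excess over the glial one, or Nefl. The background alternatives and the mean of probe sets cannot move the difference of a single filament gene, and members below background on both arrays are not in this count. With a background at the 10th percentile or with none, the neuronal filament median exceeded the glial one by 0.92. With a background passed on both arrays this was 0.41, the neuronal median was 0.53, 1 member was higher by more than 1 and 230 genes were lower. With an offset of 32 the neuronal median was 0.75, its excess over the glial one 0.64, 1 member was higher by more than 1, and 403 genes were higher and 99 lower. Median centring took 0.11 off every difference and gave 433 genes higher and 575 lower, against 573 and 359 before. It turned the differences of Synm to -0.03 and Des to -0.09. A background passed on both arrays dropped Ina. Its measured difference was 1.08 with the offset and 1.94 after loess, but it was kept for being high on 1 array, so this range says nothing on its stability. Under the scaling alternatives and the offset, Nefl fell under 1 with the offset, at 0.75, and Gfap ran from 0.53 to 0.73. Low signal over background limits Nes, Synm and all neuronal members.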
